A study of Mus musculus with 54 samples.

Results

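Rgs1, Rgs2, Rgs16, Hdc and Elf3 are 5 of the 33126 genes counted in a study of how mouse kidney is taken apart and stored before RNA sequencing. Rgs16, Hdc and Elf3 were chosen by measured values, because their bulk counts were higher in warm-dissociated than in cold-dissociated suspensions, and Rgs1 and Rgs2 were taken with them as relatives of Rgs16. The bulk values of that contrast are therefore given as a description, with no test. The data were 15 bulk RNA-seq libraries and 39 10x libraries in 18 groups of 3, each group from kidneys of 3 mice.

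The warm and cold suspensions came from male AFAPIL.1DEL C57BL/6J littermates of 19 weeks that had undergone no procedure, a genotype that the cold and warm groups share. Warm dissociation used the Miltenyi Multi-tissue dissociation kit 2 at 37 °C, and cold dissociation used a protease of B. Licheniformis on ice. Each C57 suspension gave a bulk library (rRNA depletion, reads of 150 nt) and a 10x library of fresh cells, and aliquots were cryopreserved for 6 weeks or fixed in methanol for 3 months. Balb/c male littermates of 18 weeks gave intact kidney for bulk (rRNA depletion, 51 nt), cold-dissociated fresh cells, and nuclei by the 3x500g protocol, named for its spins. Balb/c female wild-type mice of 15 weeks, which had been used for breeding, gave intact kidney and a cold suspension for bulk (poly(A) selection, 60 nt). They also gave cold-dissociated cells, fresh or cryopreserved for 2 weeks, and nuclei by 3 protocols (3x500g, 1x2000g and sucrose). Strain, sex, age, kit, chemistry and batch cannot be told apart between the 3 experiments, and warm dissociation was done in C57 mice only.

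Bulk libraries held 2326998 to 31093949 counts, and 10x libraries 983522 to 35170947 UMIs (unique molecular identifiers, which count molecules and not reads) on 782 to 9308 barcodes. Across 741 pairs of 10x libraries the barcodes shared were at most 2.046% of the smaller library. A filter of the authors bears on rare genes. By their methods, genes detected in fewer than 10 cells of a library were removed, so a gene at 0 throughout a 10x library may still have had UMIs in some of its cells, and is written as listed at 0. In the deposited libraries 0 to 12.1% of the genes above 0 (median 0.84%) were in fewer than 10 barcodes, so that minimum was not met throughout. Among the 18 C57 10x libraries, Rgs16 was listed at 0 in 14, Hdc in 13, Rgs1 in 3, Elf3 in 2 and Rgs2 in 0. In Balb/c males Rgs1 and Rgs16 were not listed at all, female cells, fresh or cryopreserved, had no row for Rgs16, cryopreserved replicates 1 and 3 of the females had none for Hdc, and female nuclei had none for Rgs1.

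Regulators of G protein signalling (RGS proteins) bind active G protein alpha subunits and speed up their GTPase activity, which ends signalling from G protein-coupled receptors. Rgs1 is known from lymphocytes and myeloid cells, where it damps chemokine receptors, Rgs2 acts mainly on Gq and is known in vascular tone and blood pressure, and Rgs16 acts on Gi and Gq. Hdc encodes histidine decarboxylase, the enzyme that makes histamine. Mast cells and basophils are its best-known sites, and neutrophils and some epithelia also express it. Elf3 is an ETS transcription factor of epithelia, known for induction by inflammatory cytokines.

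In GRCm38, Rgs1 lies on the minus strand at chr1:144242296-144249242 and Rgs2 on the minus strand at chr1:143999338-144004161. Elf3 is on the same chromosome, minus strand, at chr1:135253575-135258568. Rgs16 is on the plus strand at chr1:153740349-153745468 and is overlapped by the antisense gene Gm28513 at chr1:153743552-153749324. The strand setting of the bulk counting was not given in the sources used here, so reads of Gm28513 may be in the Rgs16 counts. Hdc lies on chromosome 2, minus strand, at chr2:126593667-126619299. Values were counted over whole genes.

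The 250 bases before the RefSeq start of the genes are shown because the members' counts differ with dissociation and these windows hold the sequence where their transcription starts. They are from RefSeq on GRCm38.p6, which matched 4 of the 5 genes (all but Rgs1), and run 5′ to 3′ on the gene's own strand. Capitals mark TGACG, the core of the cAMP response element (on the other strand CGTCA), and CCAAT, the box bound by NF-Y (on the other strand ATTGG). The windows are Rgs2 at chr1:144004150-144004399 (minus strand), Rgs16 at chr1:153740103-153740352 (plus), Hdc at chr2:126618679-126618928 (minus) and Elf3 at chr1:135258473-135258722 (minus). The positions printed above are from GENCODE and span every annotated transcript of a gene. The RefSeq start used here lies inside them, so the Hdc window is wholly inside the printed gene and the other windows overlap it in part.
Rgs2: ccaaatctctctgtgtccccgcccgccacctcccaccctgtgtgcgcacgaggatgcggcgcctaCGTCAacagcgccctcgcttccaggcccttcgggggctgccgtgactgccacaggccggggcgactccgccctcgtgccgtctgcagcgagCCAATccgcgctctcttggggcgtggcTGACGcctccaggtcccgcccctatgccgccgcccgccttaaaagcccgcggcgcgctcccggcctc
Rgs16: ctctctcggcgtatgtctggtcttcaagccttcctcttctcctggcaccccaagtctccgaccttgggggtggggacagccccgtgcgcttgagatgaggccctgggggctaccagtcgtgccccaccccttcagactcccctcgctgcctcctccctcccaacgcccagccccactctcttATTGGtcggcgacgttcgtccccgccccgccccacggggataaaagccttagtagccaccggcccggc
Hdc: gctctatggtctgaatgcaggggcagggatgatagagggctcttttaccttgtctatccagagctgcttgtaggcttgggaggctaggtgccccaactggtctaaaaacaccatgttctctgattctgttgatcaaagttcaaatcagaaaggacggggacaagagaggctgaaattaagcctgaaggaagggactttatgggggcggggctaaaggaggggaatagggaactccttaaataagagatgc
Elf3: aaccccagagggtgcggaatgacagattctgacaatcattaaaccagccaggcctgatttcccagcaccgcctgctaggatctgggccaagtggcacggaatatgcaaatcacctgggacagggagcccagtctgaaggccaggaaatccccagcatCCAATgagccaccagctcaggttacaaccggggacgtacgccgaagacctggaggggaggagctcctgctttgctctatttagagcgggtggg
GC content was 72.4% for Rgs2, 66.4% for Rgs16, 57.2% for Elf3 and 48.8% for Hdc. Rgs2 held TGACG on both strands, and 17.8% of 32851 mouse promoters of this length held at least 1 match. CCAAT was found in Rgs2, Rgs16 and Elf3 and in 33.8% of promoters. No window held the full element TGACGTCA (1.55% of promoters), the AP-1 site TGANTCA (6.75%), the NF-kB site (0.14%), the heat shock element (0.466%), the CArG box (1.47%), TATAAA (12.4%) or the ETS motif GGAAGT (19.7%), on either strand. A match in these letters describes the window and shows no binding.

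In bulk suspensions of C57 kidney, Rgs1 had 0.611, 0.503 and 0.953 CPM (reads scaled to a common library total) in the 3 cold libraries and 22.71, 24.02 and 19.42 in the 3 warm libraries. These were 5, 3 and 6 reads against 175, 166 and 145. Every warm library was above every cold library, and the log2 fold change was 4.95 (SE 0.235), or 30.89-fold. Rgs16 had 0, 1 and 0 reads in the cold libraries and 18, 11 and 11 in the warm libraries. The groups did not overlap, but the cold side rests on 1 read, and the ratio of summed reads was 37.05 with a 95% counting interval of 6.279 to 1499. Rgs2 was at 14.78, 16.92 and 9.687 CPM in cold and 35.95, 27.2 and 30.28 CPM in warm libraries. With a log2 fold change of 1.15 (SE 0.161) it stayed under the limit of 2 on the log2 scale used for bulk calls.

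Hdc had 0.489, 0.503 and 0.476 CPM in the cold and 2.206, 3.328 and 2.545 CPM in the warm libraries (4, 3 and 3 reads against 17, 23 and 19). Its log2 fold change was 2.39 (SE 0.376) and the groups did not overlap. Elf3 was at 9.896, 10.55 and 12.23 CPM in cold and 48.41, 38.2 and 65.24 CPM in warm libraries. The log2 fold change of 2.20 (SE 0.188) put it just inside the limit, and its lowest value with 1 library left out, 1.98, was outside. In this fit 14102 genes were tested, 0.447% were called higher in warm suspensions, 0.0638% lower and 0.511% in either direction. Since this contrast chose the members, nothing is read from these shares. In a bulk suspension fewer cells of a type and less RNA per cell cannot be told apart.

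**Figure D1:**
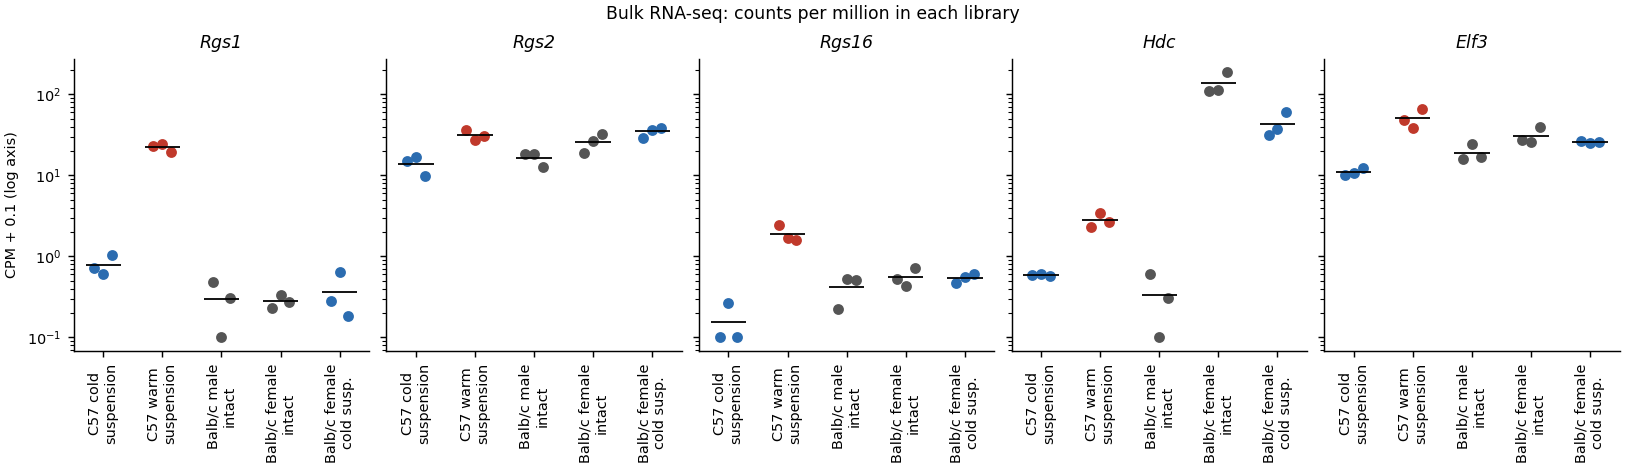
CPM plus 0.1 of the 5 genes in the 15 bulk libraries, on a log axis with 1 panel a gene, where each point is a library and each line the mean of 3 libraries. All 5 genes were higher in the 3 warm than in the 3 cold C57 suspensions, and Hdc stood at 109.9 to 187.2 CPM in Balb/c female intact kidney against at most 0.508 CPM in Balb/c male intact kidney.

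Per kilobase of exon, Elf3 (4.914 CPM per kb) and Rgs2 (3.804) were the most abundant of the 5 in cold C57 suspensions, with overlapping libraries. Rgs1 (0.0992) and Hdc (0.0766) overlapped with each other, and Rgs16 (0.0239) came last. Warm suspensions gave the order Elf3 (22.83 CPM per kb), Rgs2 (8.586), Rgs1 (3.175), Rgs16 (0.7698) and Hdc (0.4215), and no neighbours in this order overlapped. Exon length was the union of all annotated exons of a gene. For Rgs1 that union was 6947 bases, as long as the whole printed gene, so the place of Rgs1 in both orders depends on that length.

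The other genes of the members' families were read from lists that hold none of the members. Of 18 other RGS genes 9 were tested in the C57 bulk fit and 0 were called, with log2 fold changes from -1.05 to 0.81 and a median of 0.05, beside a median of -0.01 over all genes. Rgs5, a mural cell gene named here after its value was seen, passed the adjusted p alone and was at -1.05. Of 12 tested G protein alpha subunits, the partners of RGS proteins, 0 were called. Of 3 tested histamine genes and 20 tested ETS genes 0 were called as well, though 1 ETS gene passed the adjusted p alone upwards and 2 downwards. In this fit 0.511% of all genes were called in either direction. For lists this short 0 calls are near that share, so nothing is read from them about the families. The share of all genes that passed the adjusted p alone is not given here.

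Markers of cell types also differed between these bulk libraries, some higher and some lower in warm suspensions, while the 5 members were all higher. Summed pan-leukocyte markers were at 242 to 278.8 CPM in cold and 152.9 to 186.6 CPM in warm suspensions, and 6 of 9 passed the adjusted p downwards. Collecting duct markers ran from 229 to 423.7 CPM in cold and from 663.5 to 836.3 CPM in warm libraries, with 6 of 7 higher. For mast cells and basophils 2 to 5 of 10 markers were above 0 in cold and 3 to 4 in warm libraries, and only Gata2 was tested (log2 fold change 0.84). Smooth muscle markers fell, 7 of 8 by adjusted p, from 144 to 200.7 CPM to 60.77 to 70.73 CPM. Among the urothelium markers Krt5, a keratin of basal cells, was called lower in warm suspensions (log2 fold change -2.22, SE 0.343, edgeR adjusted p = 0.0018). The share of all genes that passed the adjusted p alone is not given here, so nothing is read from these counts of markers. The part of these cells in the members' bulk values was not tested. Of the genes next to the members along the chromosome, Uchl5, beside Rgs2, was at 0.01 on the log2 scale, and Slc27a2 and Gabpb1, beside Hdc, at 0.12 and 0.07, and none of these was called.

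Balb/c female bulk libraries, which had no part in the choice of members, compare a cold suspension with intact kidney. Hdc was at 109.9, 113.3 and 187.2 CPM in intact kidney and at 31.7, 37.31 and 60.94 CPM in the suspension. Every suspension was below every intact kidney, and the log2 fold change was -1.67 (SE 0.254, edgeR adjusted p = 0.00158), past the adjusted p but short of the fold limit. Rgs2 was at 18.91, 26.28 and 32.55 CPM in intact kidney and 29.2, 36.51 and 38.54 CPM in suspension, which overlapped (log2 fold change 0.42, SE 0.166, adjusted p = 0.115). Elf3 gave -0.27 (SE 0.132, adjusted p = 0.199) and Rgs16 -0.05 (SE 0.326, adjusted p = 0.942), and Rgs1, at 0.0845 to 0.532 CPM, had too few reads to be tested. Of 16538 genes 1.68% were called, 0.230% higher and 1.45% lower in the suspension, and none of the 4 members tested was among them.

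Hdc in Balb/c female intact kidney was the most abundant member per kilobase, at 21.41 CPM per kb beside 13.92 for Elf3, with overlapping libraries. In male intact kidney it had 0.508, 0 and 0.205 CPM, while Elf3 was at 15.74 to 24.5 CPM and Rgs2 at 12.48 to 18.05 CPM. Sex, age and library kit all differ between these groups. Slc27a2, the neighbour of Hdc and a fatty acid transport gene, was also lower in the female suspension (log2 fold change -0.68, SE 0.082, adjusted p = 0.000396), but was not called. Of the urothelium markers 5 of 9 were called lower, among them the uroplakins Upk1b (-3.49), Upk3a (-3.44) and Upk2 (-2.85) and the surface protein gene Psca (-3.43). Pan-leukocyte markers summed to 45.54 to 59.52 CPM in intact kidney and 94.08 to 121.6 CPM in suspension. Proximal tubule markers summed to 12620 to 15010 CPM in intact kidney and 12730 to 13160 CPM in suspension.

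The same C57 suspensions were also run on the 10x platform. These libraries are aliquots of the suspensions on which the members were chosen, so they measure the same animals a further time and not other animals. Rgs1 was at 4.708, 0 and 1.93 CPM in the 3 cold libraries (the 0 being a library in which it is listed at 0) and at 44.93, 39.89 and 29.53 CPM in the 3 warm libraries. The groups did not overlap, and the log2 fold change of 4.30 (SE 0.524, adjusted p = 0.00137 by edgeR) became 3.61 without cold replicate 2. Rgs2 was at 18.83, 16.27 and 12.1 CPM in cold and 38.27, 29.93 and 33.65 CPM in warm libraries (1.13, SE 0.139, adjusted p = 0.00144). Elf3 rose from 7.157, 6.831 and 6.306 CPM to 17.71, 10.38 and 13.02 CPM (0.99, SE 0.179, adjusted p = 0.00916). Without cold replicate 2 the adjusted p of Elf3 was 0.0549, and with all 6 C57 groups in 1 fit 0.19. In the whole-library fit 7.86% of genes were called higher.

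Rgs16 and Hdc were too rare in fresh cells for a test. Rgs16 was listed at 0 in the 3 cold libraries and in 2 of 3 warm libraries, and the other warm library held 15 UMIs. Hdc had 13 UMIs in 1 cold library and 16 in 1 warm library. Of these, 6 cold UMIs were in endothelial-like and 4 in monocyte-like cells, and 7 warm UMIs in neutrophil-like cells. The higher bulk values of these genes in warm suspensions were therefore not measurable in the fresh 10x libraries, neither as a difference nor as its absence.

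**Figure D2:**
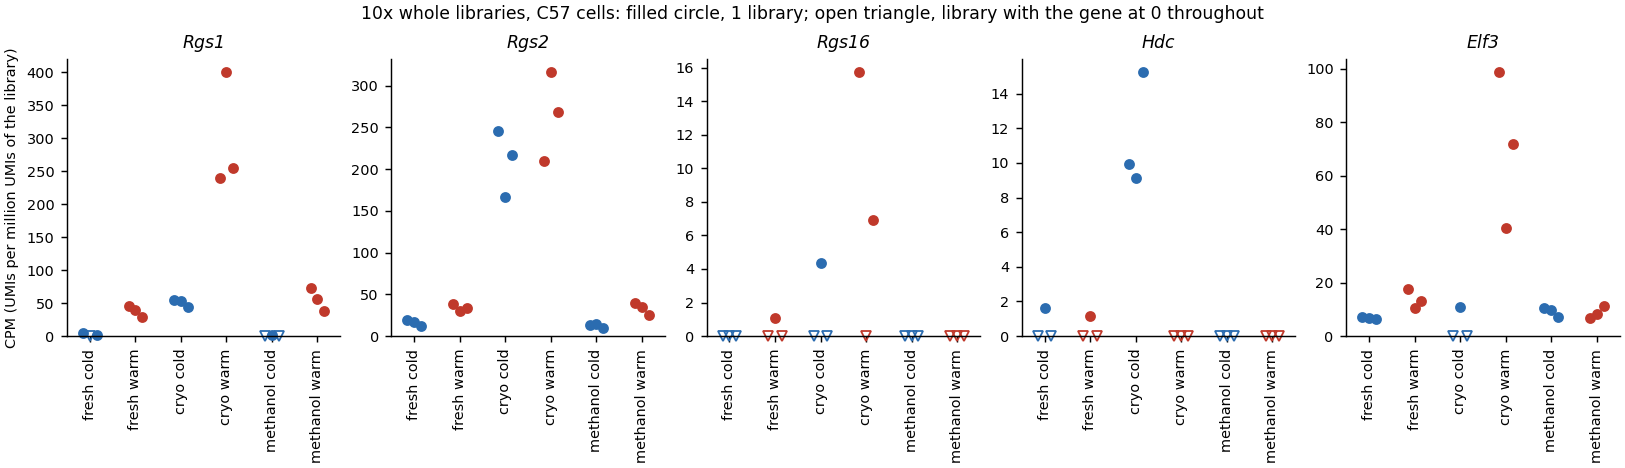
CPM of the 5 genes in the 18 whole 10x libraries of C57 cells, by dissociation and storage, on linear axes that start at 0, with a filled circle for a library and an open triangle for a library in which the gene is listed at 0. Rgs1 lay higher in warm than in cold libraries under all 3 kinds of storage, and the highest levels of Rgs1 and Rgs2 were in cryopreserved libraries.

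Cells were grouped by clustering, and a class carries a name followed by "-like" where its clusters showed at least 3 markers. Fresh Rgs1 UMIs lay in leukocytes: in warm libraries 696 of 983 (70.8%) were in macrophage-like cells, which were 5.26% of the barcodes, and 185 (18.8%) in T-like cells. Cold libraries held 40 Rgs1 UMIs, 34 of them in T-like and 5 in macrophage-like cells. Rgs2 UMIs were also most frequent in macrophage-like cells, at 31.1% of 325 in cold and 46.2% of 834 in warm libraries. Elf3 UMIs were spread over the tubule: in warm libraries 98 of 321 were in proximal tubule-like cells (67% of barcodes) and 76 in principal-like cells (0.577% of barcodes).

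In macrophage-like cells Rgs1 was at 5.866, 0 and 10.65 CPM in cold and 1048, 909.6 and 600.7 CPM in warm libraries, a log2 fold change of 7.0 (SE 0.456, adjusted p = 6.23e-07). The cold value of 0 is again replicate 2, without which the change was 6.41 (adjusted p = 1.13e-05). With 5 UMIs in cold libraries, Rgs1 passed the filter on low counts through the warm libraries. The share of macrophage-like cells with an Rgs1 UMI was 0.768% in cold and 21.1% in warm libraries, with medians of 1140 and 706 UMIs per cell. Here and below, such a median is the median of the medians of the libraries, whereas the shares pool all cells. In proximal tubule-like cells, which should lack the gene, that share was 0.239% in warm libraries at a median of 1399 UMIs. Rgs2 in macrophage-like cells was at 222.9, 111.9 and 77.22 CPM in cold and 588.5, 403.1 and 568.5 CPM in warm libraries (1.94, SE 0.288, adjusted p = 0.000919). Among genes tested in these cells 3.36% were called higher.

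The macrophage-like class held clusters 13 and 19, which were not taken in equal parts. Cluster 13, led by Mmp12, Mmp13 and C3ar1 and with the chemokine genes Ccl3 and Ccl4 among its top genes, held 56.4% of the class in cold and cluster 19, led by Aif1, Rgs10 and Wfdc17, 64% in warm libraries. Pooled over libraries, Rgs1 was at 8.30 CPM in cold and 1317 CPM in warm cells of cluster 13, and 687 of the 696 warm UMIs were there. Cluster 19 had 0 Rgs1 UMIs in cold and 31.9 CPM (9 UMIs) in warm cells, at 870.6 and 743.6 UMIs per cell. Rgs2 followed the same clusters, at 146 CPM in cold and 709 CPM in warm cells of cluster 13, and 52.6 and 53.2 CPM in cluster 19.

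Dendritic-like cells had 0 Rgs1 UMIs in cold libraries, of which replicate 2 is listed at 0 throughout, and 137.2, 289.2 and 377.2 CPM (59 UMIs) in the warm libraries. Rgs1 thus passed the filter on low counts through the warm libraries alone. With 3 UMIs as the floor over the other 2 cold libraries, the level was at least 20.2-fold higher (adjusted p = 0.000165, 6.76% of genes called higher), and 40.8% of warm dendritic-like cells held a UMI. Their Rgs2 was at 237.8, 114.3 and 127.8 CPM in cold and 466.5, 309.9 and 377.2 CPM in warm libraries (1.31, SE 0.316, adjusted p = 0.0223). That call was lost without cold replicate 2, cold replicate 3 or warm replicate 3, with DESeq2 (adjusted p = 0.361) and without the filter on low counts (0.113).

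T-like cells also had more Rgs2 after warm dissociation. It was at 48.92, 6.253 and 12.08 CPM in cold (7 UMIs in all) and 327.8, 476.3 and 259 CPM in warm libraries (4.25, SE 0.515, adjusted p = 0.0013, 3.88% of genes called higher). Here too the gene passed the filter on low counts through the warm libraries. The share of T-like cells with an Rgs2 UMI was 2.56% in cold and 40.1% in warm libraries, against 0.163% and 0.225% in proximal tubule-like cells. T-like Rgs1 was at 281.3, 0 (listed at 0) and 66.45 CPM in cold and 590.1, 611.5 and 647.4 CPM in warm libraries. Although the groups did not overlap, the change of 2.67 (SE 0.719) had an adjusted p of 0.0923.

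B-like cells had Rgs2 at 36.61, 54.83 and 0 CPM in cold and 139.4, 279.4 and 237.4 CPM in warm libraries (2.59, SE 0.59, adjusted p = 0.0262, 4.46% called higher). That call was lost without cold replicate 1, warm replicate 2 or warm replicate 3, and with DESeq2 (adjusted p = 0.0713). Monocyte-like cells gave 0.76 for Rgs2 (SE 0.507, adjusted p = 0.759, 3.02% called higher). In endothelial-like cells Rgs2 was at 7.951 to 29.68 CPM in cold and 20.5 to 27.08 CPM in warm libraries, which overlapped.

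Elf3 was tested in 3 tubule classes and called in 1 of them. Principal-like cells of the collecting duct had it at 48.4, 37.21 and 50.71 CPM in cold and 498.3, 165.3 and 145.1 CPM in warm libraries (2.45, SE 0.425, adjusted p = 0.000745, 2.40% of genes called higher). The share of these cells with an Elf3 UMI was 13.5% in cold and 47.7% in warm libraries, at medians of 2965 and 5294 UMIs per cell, and the warm classes held 12, 38 and 15 barcodes. Macrophage-like cells, which should lack Elf3, had shares of 0.307% and 0.676%. Intercalated-like cells had Elf3 at 29.74, 28.42 and 22.51 CPM in cold and 92.64, 61.69 and 50.81 CPM in warm libraries. The change of 1.18 (SE 0.415, adjusted p = 0.324, 0.759% called higher) did not pass, nor did that of Rgs2 in the same cells (1.55, SE 0.442, adjusted p = 0.102). Proximal tubule-like cells gave 0.31 (SE 0.291, adjusted p = 0.52, 3.05% called higher), from 3.152 to 5.408 CPM in cold and 4.054 to 7.193 CPM in warm libraries. Thin limb-like cells had 42.93 to 84.58 CPM of Elf3 in cold and 81.34 to 127.8 CPM in warm libraries, which overlapped, and were not tested.

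**Figure D3:**
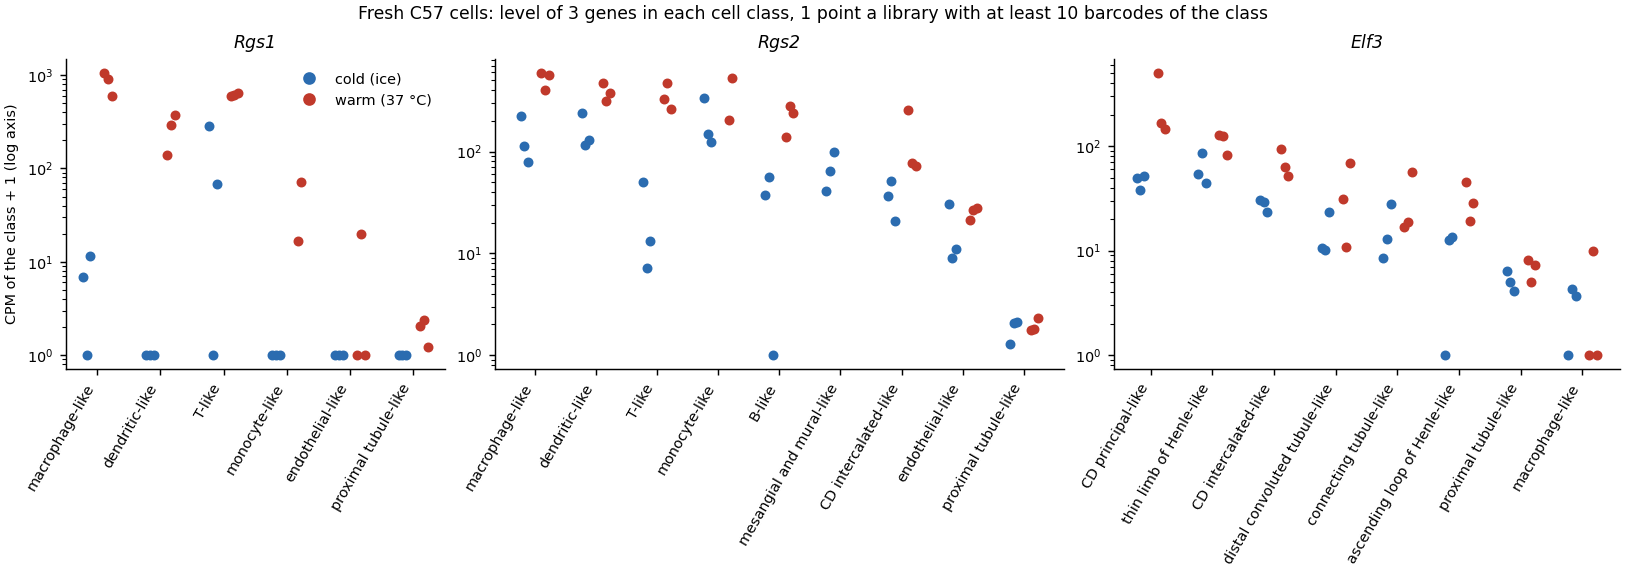
CPM plus 1 of Rgs1, Rgs2 and Elf3 in the cell classes of fresh C57 cells, on log axes, with 1 point a library that held at least 10 barcodes of the class (cold and warm in separate colours). Warm points of Rgs1 stand apart from cold points in macrophage-like and dendritic-like cells, and those of Elf3 in principal-like and intercalated-like cells.

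Counting each member in whole libraries and in each class as a pair, 10 of 15 pairs were called in fresh cells, all higher in warm dissociation, of which 3 were whole libraries and 7 of 12 were classes. At the share of genes called in the same fits, 0.991 pairs would have been called. These libraries are aliquots of the suspensions that chose the members, and whole libraries hold the classes, so nothing is read from that excess. Of 18 other RGS genes 7 were tested in whole libraries, of which 0 rose, 4 fell (Rgs3, Rgs5, Rgs10 and Rgs19) and 3 did not pass the test, with a median of -0.57 beside -0.03 over all genes, 7.07% of which were called lower. Of 19 other ETS genes 0 rose and 4 fell, among them the leukocyte factors Spi1 and Fli1. Of 10 G protein alpha subunits 2 rose, Gnai1 (0.46) and Gnas (0.33). Of 2 other histamine genes tested 1 rose, with a median of 0.51 for the list. Pan-leukocyte markers fell, 9 of 9, from a sum of 999 to 1104 CPM in cold to 561.1 to 611.5 CPM in warm libraries, while Rgs1 rose. Collecting duct markers also fell, 4 of 7, from 849.7 to 1116 CPM to 477.9 to 540.9 CPM, while Elf3 rose, so in 10x libraries these markers moved the opposite way from bulk. Only Gata2 of the 10 mast cell and basophil markers was listed in C57 10x libraries.

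Across 28 points (class by temperature, fresh cells, points sharing libraries and depth) the genes whose log2 levels ran most like Rgs1 were the chemokine genes Ccl4 (Pearson r 0.916) and Ccl3 (0.821), and Tnf (0.777). For Rgs2 they were Arhgef6 (0.871), Mknk1 (0.813) and Stap1 (0.812). Elf3 ran most like the tight junction genes Cldn3 (0.908) and Cgn (0.902), and F2rl1 (0.902). Dapk2, Gm42670 and Mmp14 led for Rgs16 and Rnf115, Ly6c2 and Rara for Hdc, but with at most 29 UMIs behind either gene nothing is read from these.

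A test of the difference in warm effect between leukocytes, tubule and endothelium called 1 of 6 pairs (0.564% of genes higher). The warm effect on Rgs2 was larger in leukocytes than in tubule by 1.54 on the log2 scale (SE 0.322, adjusted p = 0.00877), and the adjusted p without cold replicate 2 was 0.315.

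Cryopreserved aliquots of the same suspensions gave a comparison of warm with cold after storage. Rgs1 ranged from 44.05 to 54.51 CPM in cold and from 240.3 to 399.9 CPM in warm libraries (2.64, SE 0.216, adjusted p = 0.00106, 4.00% called higher). Rgs2 was at 166.3 to 245.6 and 210.1 to 316.5 CPM (0.44, SE 0.18, adjusted p = 0.185), and the groups overlapped. Elf3 was listed at 0 in 2 cold libraries and at 10.94 CPM in the other, and ranged from 40.35 to 98.76 CPM in warm libraries (4.03, SE 0.762, adjusted p = 0.0246). With the 2 libraries at 0 left out (1 cold library remains) the adjusted p was 0.16, with DESeq2 it was 0.152, with 9 UMIs in place of each 0 it was 0.00625, and the call was lost without cold replicate 1 or 3 or warm replicate 1 or 3.

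Macrophage-like cells after cryopreservation had Rgs1 at 84.79, 238.5 and 99.82 CPM in cold and 1470, 2017 and 1360 CPM in warm libraries (3.62, SE 0.262, adjusted p = 6.6e-10, 8.64% called higher). The share of them with an Rgs1 UMI was 10.5% in cold and 51.7% in warm libraries, against 0.556% and 1.45% of intercalated-like cells, whose library medians had medians of 2456 and 2859 UMIs. Of the warm intercalated-like cells, the 480 in cluster 22 had a lower mean of 1667 UMIs. Cluster 13 held 89.2% and 71.6% of the macrophage-like class. Rgs2 in macrophage-like cells rose as well (1.32, SE 0.159, adjusted p = 1.54e-06). T-like cells had Rgs1 at 182.9, 104.1 and 64.72 CPM in cold and 728.4, 720.7 and 739.7 CPM in warm libraries (2.71, SE 0.271, adjusted p = 1.25e-05, 8.59% called higher), and Rgs2 rose by 2.32 (SE 0.241, adjusted p = 1.61e-05). In dendritic-like cells Rgs1 rose by 1.91 (SE 0.299, adjusted p = 0.000257, 4.86% called higher), while Rgs2 gave -0.24 (adjusted p = 0.678). B-like cells had a rise of 1.81 in Rgs2 (SE 0.307, adjusted p = 0.000434, 7.53% called higher). In monocyte-like cells the changes were 0.31 for Rgs1 and 0.15 for Rgs2 (adjusted p = 0.889 and 0.916, 1.32% called higher).

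Endothelial-like cells had 2 Rgs1 UMIs in cold and 55 in warm cryopreserved libraries, a ratio of 23.2 with a counting interval of 6.12 to 196 (adjusted p = 5.57e-05, 6.31% called higher). Here Rgs1 passed the filter on low counts through the warm libraries. Without marked doublets or at resolution 1 that Rgs1 difference could not be tested. Their Rgs2 rose by 1.37 (SE 0.378, adjusted p = 0.026), a call lost without cold replicate 2 or 3 or warm replicate 1, without marked doublets (adjusted p = 0.124) and with DESeq2 (0.115). Elf3 in principal-like cells was at 0, 42.85 and 0 CPM in cold and 278.6, 269.6 and 471.4 CPM in warm libraries (3.78, SE 0.502, adjusted p = 1.52e-05, 8.19% called higher). In intercalated-like cells it was at 0, 16.91 and 0 CPM and 277.6, 138.3 and 160 CPM (4.67, SE 0.607, adjusted p = 0.00015, 3.53% called higher). The cold values of 0 are the libraries in which Elf3 is listed at 0, and without them, when the cold group is 1 library assumed to vary like the others, the adjusted p was 2.98e-10 and 0.00633. In both classes Elf3 passed the filter on low counts through the warm libraries. With coarser clusters (resolution 1) the changes were 4.04 in principal-like and 3.61 in intercalated-like cells. Cluster 22, led by Aqp6, Slc4a1 and Kit, scored next highest for principal cell markers, and 36.3% of its barcodes were from warm cryopreserved replicate 1. Clusters 22 and 23 held 936 and 907 barcodes, and at resolution 1 the intercalated-like class held 1377, while the principal-like class held 1076, 24.5% of them from that library. Cluster 22 held 76.1% of cold and 87% of warm cryopreserved intercalated-like cells, whereas cluster 23, led by Hmx2, Slc26a4 and Atp6v0d2, held 60% and 79.9% of the fresh ones. Pooled Elf3 in cluster 22 was 25.4 CPM in cold and 103.3 CPM in warm fresh cells, and 5.51 and 226.2 CPM after cryopreservation. Intercalated-like cells were 4.125 to 5.74% of cold and 7.1 to 28.53% of warm cryopreserved barcodes.

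In all, 13 of 18 pairs were called after cryopreservation, 12 higher and 1 lower in warm dissociation. At the share of genes called in those fits, 1.29 pairs would have been called. These aliquots too are from the suspensions that chose the members, so nothing is read from that excess. The 1 lower was Hdc in whole libraries, where 2.68% of genes were called lower. It had 71 UMIs in cold libraries (9.117 to 15.23 CPM) and was listed at 0 in the 3 warm libraries (adjusted p = 0.0416), so the bulk and cryopreserved differences run opposite ways. With 9 UMIs in place of each 0 the adjusted p was 0.191, with all 6 C57 groups in 1 fit 0.0878, and the call was lost when cold replicate 1, 2 or 3 or warm replicate 1 or 3 was left out. Of the 71 UMIs, 45 were in neutrophil-like cells, at 1018, 1456 and 1084 CPM (11, 14 and 20 UMIs), and 43.9% of the 57 neutrophil-like barcodes held one at a median of 620 UMIs, against 0.499% of B-like cells at 1076 UMIs. Hdc was kept out of the clustering but is among the leading genes of that cluster, which were picked by level, so its level there is no finding of its own. Warm cryopreserved libraries held 17 neutrophil-like barcodes, and the fresh libraries 14 in cold and 5 in warm. Rgs16 had 12 UMIs in 1 cold and 39 UMIs in warm cryopreserved libraries, of which 13 were in T-like cells, 12 in endothelial-like cells and 11 in the unnamed cluster 26 (led by Sox17, Fbln2, Stmn2 and Edn1), and it could not be tested.

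In methanol-fixed aliquots Rgs1 was again higher in warm libraries. It was listed at 0 in 2 of 3 cold libraries and at 2.231 CPM in the other, and ranged from 37.62 to 72.78 CPM in warm libraries (5.97, SE 0.554, adjusted p = 0.000536, 1.15% called higher). The change was 4.66 without the libraries at 0, against the 1 cold library left. Rgs2 ranged from 9.965 to 14.82 CPM in cold and from 25.42 to 39.19 CPM in warm libraries (1.46, SE 0.201, adjusted p = 0.0065), with an adjusted p of 0.0503 without warm replicate 1. Elf3 was at 7.097 to 10.39 CPM in cold and 6.617 to 11.18 CPM in warm libraries (-0.07, SE 0.378, adjusted p = 0.949), and in proximal tubule-like cells its change was 0.05 (SE 0.61, adjusted p = 0.985, 1.14% called higher). Rgs16 and Hdc were listed at 0 in all 6 methanol libraries.

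By class, macrophage-like cells had Rgs1 at 2191, 1482 and 1122 CPM in warm methanol libraries and 0, 10.94 and 0 CPM in cold ones, of which the zeros are the libraries listed at 0 (8.26, SE 0.479, adjusted p = 3.78e-08, 5.21% called higher). Without these libraries, which leaves 1 cold library assumed to vary like the others, the change was 6.96 (adjusted p = 1.85e-07). Cluster 19 held 54.1% of cold and cluster 13 52% of warm cells of the class, and pooled Rgs1 within cluster 13 was 3.36 CPM in cold and 2232 CPM in warm libraries. Rgs2 rose in the same cells (2.48, SE 0.328, adjusted p = 0.000128). In T-like cells Rgs1 rose by 3.77 (SE 0.606, adjusted p = 0.00137, and 0.0322 without the 2 cold libraries listed at 0, against the 1 left) and Rgs2 by 3.55 (SE 0.662, adjusted p = 0.00475), with 3.35% of genes called higher. DESeq2 gave the T-like Rgs1 an adjusted p of 1. B-like cells had 37 Rgs2 UMIs in warm and 0 in cold libraries, at least a 30.7-fold difference (adjusted p = 1.38e-05, 4.96% called higher). There Rgs2 passed the filter on low counts through the warm libraries alone. Rgs1 in macrophage-like cells, with 2 UMIs in cold libraries, and in T-like cells also passed it through the warm libraries. In all, 7 of 9 pairs were called in methanol-fixed libraries, all higher in warm dissociation, where 0.361 pairs would have been called at the share of genes called in those fits. As these aliquots are from the suspensions that chose the members, nothing is read from that excess.

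**Figure D4:**
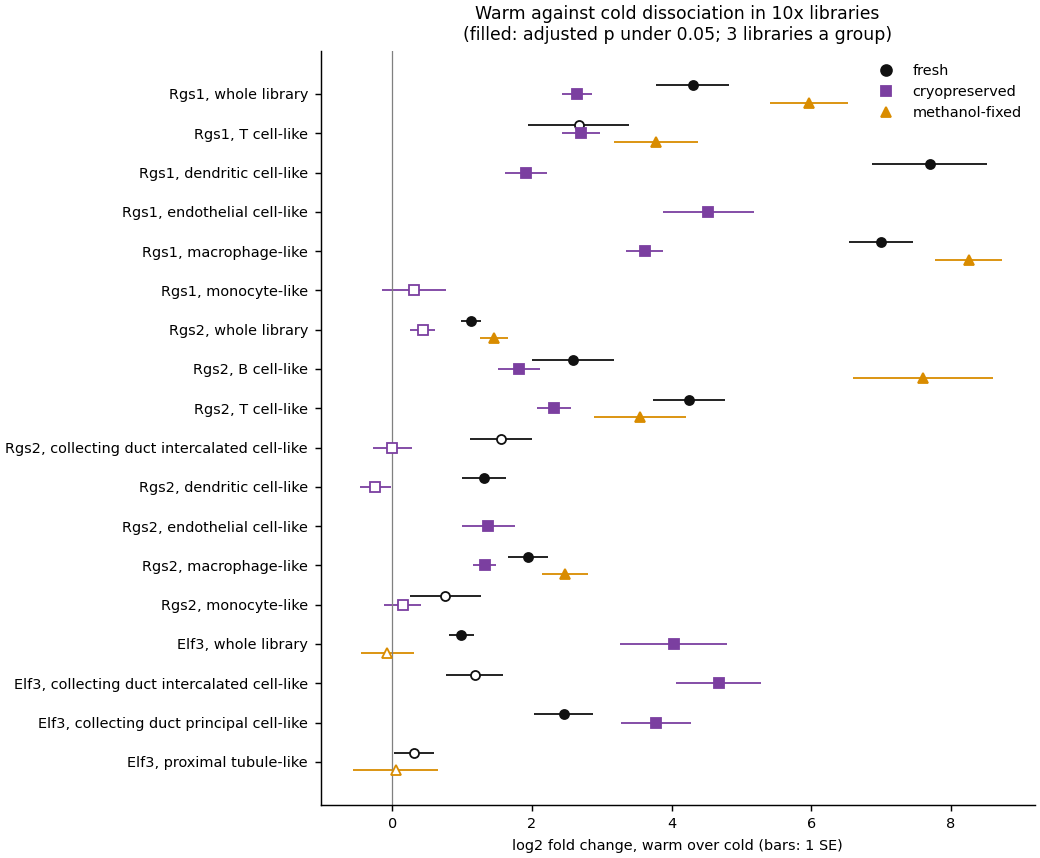
Log2 fold change of warm over cold dissociation in 10x libraries for each gene and class tested, with bars of 1 SE, a colour for each kind of storage, and filled points where the adjusted p was under 0.05 (3 libraries a group). Points of Rgs1 lie right of 0 in whole libraries and in macrophage-like cells under all 3 kinds of storage.

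The difference between storage methods in the warm effect was tested directly. After cryopreservation 4 of 21 pairs differed from fresh cells (2.42% of genes called in either direction), and after methanol 0 of 18 (0.0791%). Both counts of pairs include Rgs16 and Hdc in whole libraries, listed at 0 in 14 and 13 of 18 libraries, and nothing is read from these pairs. These fits left out the pairing of stored with fresh aliquots of a suspension. The warm effect on Rgs1 was smaller after cryopreservation in macrophage-like cells (-3.30 on the log2 scale, SE 0.735, adjusted p = 0.0137), and that on Rgs2 in dendritic-like cells (-1.52, SE 0.377, adjusted p = 0.0233, not called in 5 of 16 leave-outs, nor without the filter, where it was 0.0757). For Rgs1 in dendritic-like cells the fit also called a smaller effect (adjusted p = 0.00235), but cold fresh cells had 0 UMIs, so the size of that difference cannot be given. For Elf3 in whole libraries it was larger (3.03, SE 0.738, adjusted p = 0.0192). Within intercalated-like, principal-like and thin limb-like cells the same test of Elf3 was not called. Summed collecting duct markers were at 849.7 to 1116 CPM in cold and 477.9 to 540.9 CPM in warm fresh libraries. After cryopreservation they were at 1406 to 2741 CPM in cold and 2204 to 3974 CPM in warm libraries. The part of these cells in the Elf3 difference was not tested. Libraries listed at 0 bear on 3 of the 4: without them the adjusted p was 0.10 for Elf3, 0.0892 for Rgs1 in macrophage-like and 0.019 for Rgs1 in dendritic-like cells.

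Between frozen and fresh aliquots most pairs differed. These comparisons share their fresh libraries with those of warm against cold. They also set aliquots of the same suspensions side by side, a pairing that the main fits left out. In cold dissociation, cryopreserved libraries had Rgs1 higher than fresh ones by 4.22 (SE 0.616, adjusted p = 0.000894) and Rgs2 by 3.29 (SE 0.189, adjusted p = 1.73e-05), and 12 of 14 pairs were higher (13.8% of genes over the same fits). At the share of genes called in either direction in those fits, 3.15 pairs would have been called. Within classes Rgs2 rose in macrophage-like (1.67, adjusted p = 2.19e-05), dendritic-like (1.77, adjusted p = 0.00036), T-like (3.07, adjusted p = 0.000376), monocyte-like (1.31, adjusted p = 0.0116), B-like (1.71, adjusted p = 0.0432) and intercalated-like cells (1.32, adjusted p = 0.0406). The last pair of calls was lost in 4 leave-outs each and with DESeq2 (adjusted p = 0.231 and 0.664), that in intercalated-like cells also with all 6 C57 groups in 1 fit, and monocyte-like Rgs2 without cold fresh replicate 2 or 3. Cold fresh replicate 2 lists Rgs1 at 0, and the adjusted p of the Rgs1 calls without it ranged from 4.59e-05 to 0.0274. Rgs1 rose in macrophage-like cells by 4.38 (adjusted p = 7.71e-06), at least 8.69-fold in dendritic-like cells (adjusted p = 0.000184) and at least 3.32-fold in monocyte-like cells (adjusted p = 0.00158), both bounds being against 3 UMIs over the 2 cold fresh libraries that do not list it at 0. Pooled within cluster 13 of the macrophage-like class, Rgs1 was at 8.30 CPM in cold fresh and 149.9 CPM in cold cryopreserved cells, and Rgs2 at 146 and 452.9 CPM. Hdc in whole libraries was also higher (3.82, SE 1.23, adjusted p = 0.0332), and was not called with the libraries at 0 left out (adjusted p = 0.0584), with all 6 C57 groups in 1 fit (adjusted p = 0.124), or without cold fresh replicate 1 or 3 or cold cryopreserved replicate 1 or 3.

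In warm dissociation 9 of 16 pairs were higher after cryopreservation (14.3% of genes). At the share of genes called in either direction in those fits, 3 pairs would have been called. Rgs1 rose by 2.55 (SE 0.237, adjusted p = 8.92e-05), Rgs2 by 2.56 (SE 0.147, adjusted p = 1.12e-05) and Elf3 by 1.98 (SE 0.331, adjusted p = 0.00158) in whole libraries. Macrophage-like cells had smaller rises, 0.96 for Rgs1 (adjusted p = 0.00611) and 1.00 for Rgs2 (adjusted p = 0.00116). Cluster 13 held 213 of their warm fresh and 353 of their warm cryopreserved barcodes, and cluster 19 held 379 and 140. Pooled within cluster 13, Rgs1 was at 1317 CPM in fresh and 1823 CPM in cryopreserved cells, and Rgs2 at 709 and 1116 CPM. Within cluster 19 they were at 31.9 and 547.9 CPM, and at 53.2 and 341.2 CPM. Intercalated-like Elf3 rose by 1.70 (adjusted p = 0.00491) and was not called without warm fresh replicate 2 or at resolution 1 (adjusted p = 0.0928). The makeup of the libraries changed beside these values: proximal tubule-like cells were 54.55 to 64.69% of cold and 66.03 to 69.03% of warm fresh barcodes, and at most 0.652% of a cryopreserved C57 library. Summed pan-leukocyte markers were at 4702 to 6170 CPM in cold and 1885 to 3302 CPM in warm cryopreserved libraries. Collecting duct markers summed to 477.9 to 540.9 CPM in warm fresh and 2204 to 3974 CPM in warm cryopreserved libraries. In cold dissociation they summed to 849.7 to 1116 CPM in fresh and 1406 to 2741 CPM in cryopreserved libraries. The part of this makeup in the whole-library values was not tested, nor was the part of clusters 13 and 19 in the values of macrophage-like cells.

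Methanol fixation gave 0 calls among 6 pairs in cold dissociation (25.6% of genes called in either direction) and 0 among 11 in warm dissociation (13.9%). These fits left out the pairing of the aliquots. With the replicate block, which these aliquots allow, Rgs1 was higher in warm methanol than in warm fresh libraries (adjusted p = 0.0158), also in macrophage-like cells (adjusted p = 0.0441).

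Fresh and cryopreserved cells of Balb/c females gave a comparison of storage in other animals, all in cold dissociation. Rgs2 ranged from 21.6 to 30.8 CPM in fresh and from 87.09 to 99.28 CPM in cryopreserved libraries (1.55, SE 0.125, adjusted p = 1.99e-05), and Elf3 from 7.535 to 9.152 CPM and from 14.79 to 20.79 CPM (0.73, SE 0.149, adjusted p = 0.003). Neither gene's groups overlapped. Rgs1 was at 0 (listed at 0), 1.399 and 2.827 CPM in fresh and 2.292, 3.191 and 8.027 CPM in cryopreserved libraries (1.29, SE 0.846, adjusted p = 0.219). In all 3 of 19 pairs were called (5.77% of genes higher). At the share of genes called in either direction in the same fits, 2.33 pairs would have been called, which is near that count. The other call was Rgs2 in an unnamed female cluster led by Aif1, Rgs10 and Il1b (2.72, SE 0.662, adjusted p = 0.0192). It was not called without cryopreserved replicate 1 or 2, with DESeq2 (adjusted p = 0.15) or without the filter (0.214). Proximal tubule-like cells were 49.72 to 57.01% of fresh and 4.99 to 7.453% of cryopreserved female barcodes. Summed collecting duct markers were at 1138 to 1842 CPM in fresh and 3359 to 4676 CPM in cryopreserved libraries. Pan-leukocyte markers were at 221.7 to 479.3 and 1056 to 1174 CPM, and smooth muscle markers at 390.9 to 739.8 and 1600 to 2386 CPM. The part of this makeup in the whole-library values of Rgs2 and Elf3 was not tested. Of the female Rgs1 UMIs, 63 of 86 in fresh and 54 of 70 in frozen libraries lay in an unnamed cluster led by the T and NK cell genes Trbc2, Ms4a4b, Cd3g and Nkg7.

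Hdc had another distribution in Balb/c females than in C57 males. Whole fresh female libraries had it at 10.03, 14.14 and 33.99 CPM, and 1104 of 1153 UMIs (95.8%) were in proximal tubule-like cells, which were 54.8% of the barcodes. Within these cells it was at 18.53, 22.1 and 58.54 CPM, 33.1 ± 22.1 (SD, n = 3), and the share with a UMI was 4.61% at a median of 2339 UMIs per cell. In principal-like cells, at a median of 2431 UMIs, that share was 0.142%, and in macrophage-like cells 0.265%. Endothelial-like cells had 5.46 ± 2.79 CPM (SD, n = 3). The fresh C57 and Balb/c male cells list Hdc at 0 in 7 of 9 libraries, so no level can be set beside these values.

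Female nuclei had Hdc at 59.51, 46.29 and 30.7 CPM after 3x500g, at 64.97, 45.52 and 30.42 CPM after 1x2000g and at 32.68, 31.15 and 35.61 CPM after the sucrose protocol. The groups overlapped, and the spread of the first 2 protocols was wider than that of sucrose. Proximal tubule-like nuclei held 92.9%, 92% and 93.1% of these UMIs, at 42.2%, 42.9% and 42.6% of the nuclei. Their levels were 102.9, 81.04 and 51.95 CPM after 3x500g and 57.09, 52.04 and 68.28 CPM after sucrose. The share of proximal tubule-like nuclei with a UMI was 13.4% at a median of 5039 UMIs, against 1.36% of principal-like nuclei at a median of 2840. Male nuclei had 2.343, 2.475 and 2.228 CPM, and 41 of 58 UMIs (70.7%) were in proximal tubule-like nuclei, which were 56.2% of the nuclei. Their level of 2.57 ± 0.164 CPM (SD, n = 3) was close to that of the whole libraries, while endothelial-like nuclei had 7.438, 8.04 and 5.26 CPM on 10 UMIs. Male and female nuclei differ in sex, age, chemistry and batch, and their levels were not tested against each other.

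**Figure D5:**
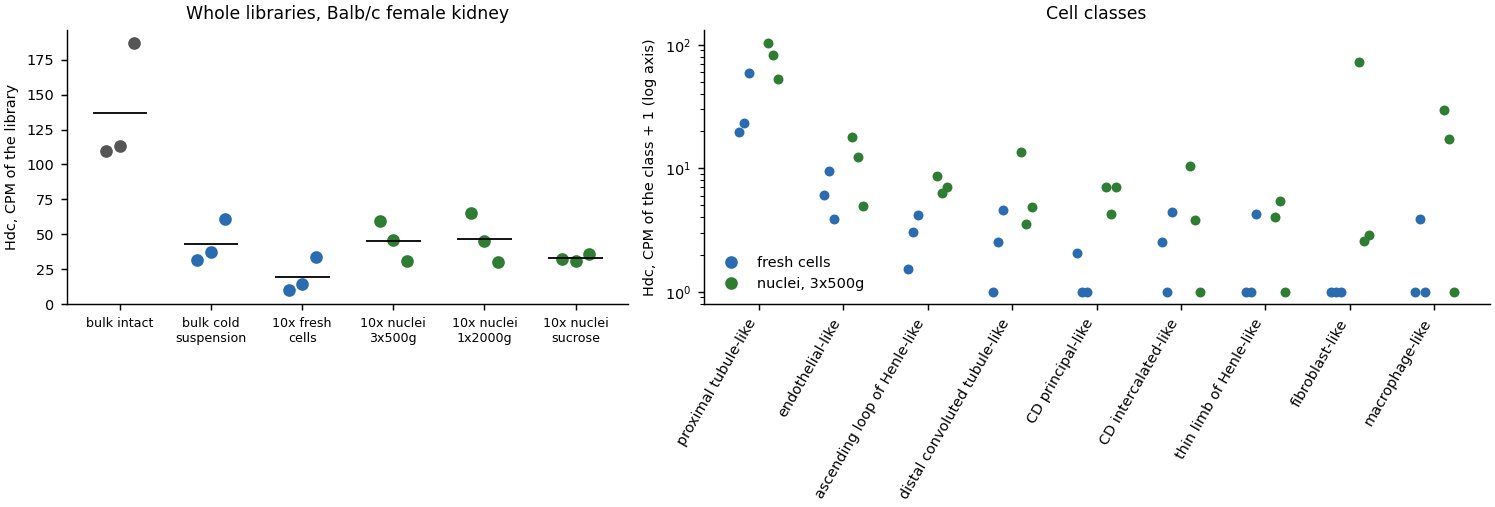
Hdc in Balb/c female kidney. Left, CPM of whole libraries on a linear axis (1 point a library, 3 a group). Right, CPM plus 1 of the cell classes on a log axis. Bulk intact kidney lies at 109.9 to 187.2 CPM of reads, whereas the 10x libraries give CPM of UMIs from the 3' end, so bulk and 10x levels are not comparable on this axis.

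Between nuclei and cells, where nuclei count introns and exons and cells exons only, most genes differed. Female nuclei against cells called 15 of 20 member pairs, all lower in nuclei (38.8% of genes lower). At the share of genes called in either direction in the same fits, 16.3 pairs would have been called. Elf3 gave a log2 difference of -1.43 (SE 0.12, adjusted p = 5.11e-06) and Rgs2 of -1.29 (SE 0.267, adjusted p = 0.00178) in whole libraries, and Rgs2 gave -3.10 in macrophage-like (SE 0.285, adjusted p = 1.7e-08) and Elf3 -3.53 in connecting tubule-like nuclei (SE 0.462, adjusted p = 6.82e-08). Hdc gave 0.26 in whole libraries (SE 0.399, adjusted p = 0.551) and -0.09 in proximal tubule-like nuclei (SE 0.359, adjusted p = 0.829). Summed pan-leukocyte markers were at 221.7 to 479.3 CPM in female fresh cells and 12.87 to 20.19 CPM in 3x500g nuclei. Collecting duct markers were at 1138 to 1842 and 289.5 to 341.6 CPM, and proximal tubule markers at 3957 to 4841 and 6659 to 6928 CPM. The part of these cell types in the whole-library values was not tested. In males 4 of 6 pairs were called (79.1% of genes in either direction), where 4.7 would have been at the share of genes called in the same fits. Rgs2 (-2.23, SE 0.321, adjusted p = 0.000313) and Elf3 (-1.53, SE 0.273, adjusted p = 0.000962) were lower in whole libraries. Elf3 was also lower in intercalated-like nuclei (-1.84, SE 0.395, adjusted p = 0.000135), and Hdc was higher in whole libraries (adjusted p = 0.000642). Male cells list Hdc at 0 in 3 of 3 libraries, and with 9 UMIs in place of each 0 the sign turned to -1.25.

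Among the nuclei protocols few member pairs were called. 1x2000g against 3x500g called 0 of 20 pairs (18.3% of genes in either direction), sucrose against 3x500g called 1 of 19 (12.0% lower) and 1x2000g against sucrose 1 of 20 (2.74% higher). Both calls were Hdc in ascending loop of Henle-like nuclei, with 7, 7 and 4 UMIs after sucrose and 38, 24 and 24 UMIs after 3x500g (-1.86, SE 0.338, adjusted p = 0.00191). The second call (1.58, SE 0.418, adjusted p = 0.0316) was lost in 5 of 6 leave-outs and at resolution 1 (adjusted p = 0.108), and DESeq2 gave it no adjusted p. Without marked doublets Hdc missed the filter on low counts in both comparisons, so neither call could be tested.

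In Balb/c mice, as in cold fresh C57 cells, intercalated-like cells of the collecting duct held more Rgs2 UMIs than their share of barcodes. In the C57 cells clusters 22 and 23 of this class held 9 and 20 of 325 Rgs2 UMIs, on 157 and 236 of 11851 barcodes. In male cells 47.8% of its UMIs were in these cells, 6.52% of the barcodes, and in male nuclei 47.6% in 3.20% of the nuclei. Female cells had 29.5% of Rgs2 UMIs in 3.03% of the barcodes, and female nuclei 50.1% to 55.8% across the protocols. The level in intercalated-like cells was 162, 220.9 and 409.4 CPM in female cells, 94.79, 184.3 and 115.1 CPM in male cells, and 35.69, 50.52 and 19.7 CPM in cold fresh C57 cells. Monocyte-like cells of Balb/c males had Rgs2 at 223.9, 159.3 and 115.3 CPM on 18 UMIs, which overlapped with the intercalated-like level. On few UMIs, macrophage-like cells (38.69, 72.56 and 292.1 CPM), mesangial and mural-like cells (160.5, 167.1 and 0 CPM) and B-like cells (180.3, 0 and 0 CPM) overlapped with it too. The highest Elf3 in female nuclei was in urothelial-like nuclei, at 63.7 ± 39.3 CPM after 3x500g (SD, n = 3). Female principal-like cells had 42.3 ± 4.9 CPM, intercalated-like cells 39.7 ± 9.6 CPM and thin limb-like cells 35.4 ± 15.1 CPM (SD, n = 3), which overlapped within their spread. In Balb/c male cells intercalated-like Elf3 was at 84.5 ± 33.4 CPM and principal-like at 65.9 ± 25.9 CPM (SD, n = 3).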

How the data were processed

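Bulk RNA-seq was measured in 15 libraries and 10x RNA-seq in 39 (27 of cells, 12 of nuclei). The authors trimmed bulk reads with Trim Galore, removed ribosomal reads with TagDust2, aligned to GRCm38 with STAR 2.6.1a, ran Picard for duplicates, and deposited read counts of genes from featureCounts. For 10x they ran Cell Ranger 2.1.1 on mm10, called cells with EmptyDrops, filtered barcodes on genes, UMIs and mitochondrial share, by their methods kept genes detected in at least 10 cells of a library, and deposited UMI counts as such. For cells only exonic reads entered, for nuclei also intronic reads, and mitochondrial genes were removed from nuclei.

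Here counts were scaled to the library total (CPM). Tests were those of edgeR 4.0.16 (glmQLFit and glmQLFTest, R 4.3.3), after TMM and filterByExpr, adjusted by Benjamini-Hochberg over all genes of a fit, on bulk counts or on UMIs summed per library and class. The SE is the log2 fold change over the square root of F. Calls needed an adjusted p of 0.05 and, in bulk, a log2 fold change of 2. A class entered a fit with at least 10 barcodes in at least 2 libraries a group. A member at or near 0 UMIs in 1 group passed filterByExpr through the other group, where it was high. This bears on its call and on the counts of pairs. Barcodes were clustered with scanpy 1.11.5 (2000 variable genes, 30 components, 20 neighbours, resolution 2), and clusters named by at least 3 markers in 10% of cells with a fold of 1.5. The members, other RGS genes and genes of stress response, blood, mitochondria, ribosomes and sex were kept out of the variable genes. Doublets were marked at 0.8% per 1000 barcodes (0.639 to 7.45% of a library) and kept. Intervals and the floor of 3 counts cover counting error only, at 95% confidence. P-values measure the spread between 3 kidneys of a group.

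Members and lists were chosen with earlier results of these data known. Named genes were the 5 members, list genes called in bulk (up to 4 a list), 3 genes per member of like pattern, and neighbours along the chromosome. Other genes, such as those that lead unnamed clusters and list genes called in 10x, were named after their values were seen. Labels carry no replicate numbers, and barcode names carry 3 tags shared by aliquots of a suspension. The correlation of deviations was over 0.1 in every pair for methanol against fresh aliquots (0.325 to 0.447 in cold, 0.138 to 0.306 in warm), which were taken as paired. It was not for cryopreserved against fresh (0.019 to 0.097 in cold, -0.041 to 0.022 in warm) or warm against cold (fresh -0.106 to 0.245). Cryopreserved C57 aliquots nevertheless came from the same suspensions as the fresh ones. The main fits left this pairing out, also for methanol, and the block by tag was an alternative. Alternatives were DESeq2 1.42.0, other scalings, filters, names, resolutions and doublet removal, each library left out in turn, and 3 added after the data were seen (a block by tag, libraries listed at 0 left out, 9 UMIs in their place). Columns of no sample numbered 0. The tests were also run on simulated data.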

Additional observations from a re-analysis of the deposited data

Results flagged for a closer look

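In 5 places the warm effect on a member differed between groups by a test of the difference itself. Between cryopreserved and fresh C57 cells, Elf3 in whole libraries differed by 3.03 on the log2 scale (adjusted p = 0.0192). Within intercalated-like, principal-like and thin limb-like cells the same test was not called. Summed collecting duct markers were at 849.7 to 1116 CPM in cold and 477.9 to 540.9 CPM in warm fresh libraries. After cryopreservation they were at 1406 to 2741 CPM in cold and 2204 to 3974 CPM in warm libraries. Elf3 was listed at 0 in 2 of 3 cold cryopreserved libraries, and was not called with such libraries left out (adjusted p = 0.10). Rgs1 differed by -3.30 in macrophage-like cells (adjusted p = 0.0137), and was not called with libraries listed at 0 left out (adjusted p = 0.0892). For Rgs1 in dendritic-like cells the fit returned -5.77 (adjusted p = 0.00235), but with 0 UMIs in cold fresh cells that figure is set by how the fit treats 0 and is neither a measured size nor a bound. The Rgs1 values in macrophage-like cells were 5 UMIs in cold fresh against 150 UMIs in cold cryopreserved libraries. Rgs2 in dendritic-like cells differed by -1.52 (adjusted p = 0.0233), a call lost in 5 leave-outs and without the filter (adjusted p = 0.0757). The warm effect on Rgs2 in fresh cells was 1.54 larger in leukocytes than in tubule (adjusted p = 0.00877), and was not called without cold fresh replicate 2 (adjusted p = 0.315). The cause of these differences was not tested.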

How the results depend on the processing

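Counts of member pairs called stayed within 1.5 times under every alternative run for warm against cold (fresh, cryopreserved and methanol), cryopreserved against fresh (C57 and female) and nuclei against cells. With 1 library left out these ran from 8 to 10 (fresh), 10 to 13 (cryopreserved), 5 to 7 (methanol), 8 to 11 and 7 to 9 (cold and warm cryopreserved against fresh), 2 to 4 (female cryopreserved), 3 to 6 (male nuclei) and 15 to 17 (female nuclei). Warm methanol against fresh went from 0 calls to 1 with DESeq2, 1 with all 6 groups in 1 fit, 2 with the replicate block and 0 to 1 with a library left out, and cold methanol against fresh to 0 to 1 with a library left out. Where the correlation of deviations was not over 0.1 in every pair, the block ended 3 calls in whole libraries. These were Hdc between cold cryopreserved and fresh (adjusted p = 0.0861) and Hdc and Elf3 between warm and cold cryopreserved libraries (0.224 and 0.111). In fresh cells the block gave T-like Rgs1 an adjusted p of 0.0484. For nuclei, 1x2000g against 3x500g (0 calls) gave 1 without the filter, 1 without doublets and 0 to 1 with a library left out. Sucrose against 3x500g (1) gave 2 without the filter, 0 without doublets, 2 with DESeq2, and 1 to 6, the 6 being without 3x500g replicate 2. 1x2000g against sucrose (1) gave 2 without the filter, 0 at resolution 1, 0 without doublets, 0 with DESeq2 (which gave the pair no adjusted p), and 0 to 1. The storage test (4) gave 2 without libraries listed at 0, and 2 to 5 with a library left out (2 without cold fresh replicate 2 or 3). The compartment test (1) ranged from 0 to 1. In bulk, calls over all genes went from 72 to 329 at a log2 fold change of 1 and to 136 without the filter (74 to 93 with a library left out), and in females from 278 to 905 (270 to 298). Rgs16 in female bulk (-0.05) ranged from -0.23 to 0.21 with a library left out, at 0.21 without intact replicate 3 and 0.06 without suspension replicate 1, and Hdc in male nuclei to -1.25 with 9 UMIs in place of each 0. The cause was not tested. Among refits of the pairs called in 10x, 447 kept their direction and side of the threshold with a library left out and 64 lost the call, and under other settings 550 did, 32 lost it and 1 turned. Pairs not called at first were not counted here, and 5 called pairs, 3 in endothelial-like cells and 2 in loop-like nuclei, could not be tested without marked doublets. Among C57 10x libraries Rgs16 and Hdc had few UMIs, and no C57 class allowed a test of Rgs16.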

Other observations

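Hdc was also found in unnamed nuclei cluster 36 of Balb/c females, led by Gm28153, Spag5 and Syn1, where it was at 139.7, 965.9 and 35.83 CPM after 1x2000g (3, 22 and 1 UMIs in 18, 17 and 19 nuclei). The middle library alone held 22 of these 26 UMIs, so the level rests on replicate 2. In neutrophil-like cells of cold cryopreserved C57 libraries Rgs2 stood at 1481, 1560 and 758.8 CPM (16, 15 and 14 UMIs). In the unnamed female cluster led by Trbc2 and Cd3g, Rgs1 was at 0, 181.8 and 141.6 CPM in fresh and 50.83, 58.83 and 226.4 CPM in cryopreserved libraries, which overlapped. These values were chosen after they were seen.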
